A study of Mus musculus with 9 samples.

Results

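Kallikrein-related peptidases are secreted serine proteases, and the genes Klk5 to Klk14 encode the members best known from stratified epithelia such as the epidermis. The 10 genes were chosen by name, as the rows of the deposited count tables whose mouse Ensembl identifier maps to Klk5 through Klk14, a rule that uses no measured value. They are 10 of the 54838 genes in the tables, and each was found once. Ear RNA of C57BL/6 mice aged 10 weeks was profiled by 3' tag RNA-Seq, which reads each transcript near its 3' end. Of the 9 libraries, 3 came from wild-type mice injected with minicircle DNA for green fluorescent protein (WT GFP), 3 from wild-type mice injected with minicircle DNA for interleukin 23 (WT IL-23), and 3 from Mdl-1-/- mice injected with the IL-23 minicircle (Mdl-1-/- IL-23). A minicircle is a small circular DNA stripped of its bacterial backbone. All mice received 15 µg of it by hydrodynamic injection into the tail vein, so the control mice had the same injection. The time between injection and tissue collection, and whether each library came from 1 animal, were not stated in the texts at hand. The p-values therefore measure the spread between these libraries, which may be technical. There was no Mdl-1-/- group with GFP DNA, so a genotype difference in the ear before IL-23 and a difference in the response to IL-23 cannot be told apart.

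In the outermost living layer of the epidermis, granular keratinocytes pack kallikreins into lamellar granules and release them as inactive proenzymes into the space between cells. There the trypsin-like members cut the propeptides of other members, which makes the family work as a cascade, and active Klk5 and Klk7 cut corneodesmosin and desmosomal cadherins so that dead corneocytes can be shed. The inhibitor LEKTI, encoded by Spink5, holds this activity back, and loss of LEKTI in Netherton syndrome leads to unchecked shedding and inflammation. Trypsin-like kallikreins can also cut the receptor PAR2, encoded by F2rl1. MDL-1, encoded by Clec5a, is a receptor of myeloid cells.

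The libraries held 3776188 to 5605713 counts. Trimmed-mean (TMM) scaling factors were 1.149 to 1.177 for WT GFP, 0.8048 to 0.9326 for WT IL-23 and 0.9361 to 1.006 for Mdl-1-/- IL-23. Values below are TMM-scaled counts per common library total (CPM), and spreads are SD with n = 3 libraries a group. Within WT IL-23, library 3 had the lowest total and the lowest scaling factor, and it also had the highest CPM of 9 members, among them Klk11 by a small margin. Clec5a had 2, 7 and 10 counts in WT GFP, 17, 21 and 11 in WT IL-23, and 10, 13 and 5 in Mdl-1-/- IL-23. The labels do not name the deleted part of the gene, and a tag at the 3' end may lie outside it, so these counts do not check the genotype. The epidermal marker genes described further on were all read. They cannot tell ear from other skin, so they do not check the part of the label that names the ear.

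The 10 genes lie side by side on chromosome 7 between positions 43690418 and 43851181 (GENCODE M21, GRCm38), a span of 160.8 kb, and all are on the plus strand. Their order is Klk14, Klk13, Klk12, Klk11, Klk10, Klk9, Klk8, Klk7, Klk6 and Klk5. Since many of these neighbours moved together, the 250 bases before the RefSeq start were examined for each of the 10 members (12 windows in GRCm38.p6, as Klk6 and Klk11 have 2 starts). The windows shown belong to Klk7, the member with the most counts, to Klk13 and Klk10, which differed widely between groups, and to Klk11, which differed little between genotypes. They are chr7:43811044-43811293 for Klk7, chr7:43712317-43712566 for Klk13, chr7:43780804-43781053 for Klk10 and chr7:43776079-43776328 for the second start of Klk11, plus strand, 5′ to 3′, with matches to a searched motif in capitals.
Klk7: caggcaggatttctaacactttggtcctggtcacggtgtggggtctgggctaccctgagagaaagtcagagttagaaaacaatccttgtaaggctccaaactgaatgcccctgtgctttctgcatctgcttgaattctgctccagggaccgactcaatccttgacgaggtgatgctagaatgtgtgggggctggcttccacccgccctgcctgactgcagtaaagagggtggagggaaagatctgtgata
Klk13: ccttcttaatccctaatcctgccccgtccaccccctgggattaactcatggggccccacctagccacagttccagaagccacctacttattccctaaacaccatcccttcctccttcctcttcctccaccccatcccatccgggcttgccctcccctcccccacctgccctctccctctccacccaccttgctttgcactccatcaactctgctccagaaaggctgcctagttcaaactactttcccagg
Klk10: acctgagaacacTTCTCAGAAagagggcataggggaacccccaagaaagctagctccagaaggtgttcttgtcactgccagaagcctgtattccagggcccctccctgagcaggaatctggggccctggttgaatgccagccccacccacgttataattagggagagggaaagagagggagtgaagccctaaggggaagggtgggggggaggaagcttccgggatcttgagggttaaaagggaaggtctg
Klk11: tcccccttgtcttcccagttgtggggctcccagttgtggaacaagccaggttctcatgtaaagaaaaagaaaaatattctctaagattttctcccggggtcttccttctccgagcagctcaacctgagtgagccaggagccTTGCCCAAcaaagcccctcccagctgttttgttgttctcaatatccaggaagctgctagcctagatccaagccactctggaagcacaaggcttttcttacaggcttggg
The capitals in Klk10 match the STAT motif TTCNNNGAA and begin at base -238, counted back from -1 next to the start. Those in Klk11 match the C/EBP motif TTGCNNAA and begin at base -109. The other Klk11 window held a second C/EBP match, TTGCTTAA at -237. Of the 10 members, STAT matches were found in Klk10 alone and C/EBP matches in Klk11 alone. Over both strands of all 32851 mouse promoter windows of that length, STAT matches occurred in 7.02% and C/EBP matches in 9.56%. No member window held AP-1 (TGANTCA, 6.75% of all windows), GRHL (AACNNGTT, 3.64%), NF-kB (1.41%), KLF (CCACACCC, 3.20%), CREB (TGACGTCA, 1.55%), ETS (CCGGAAGT, 2.88%) or TATA box letters (TATAAA, 12.4%). A match is a run of letters and not a measured binding site, and an absent match concerns only these letters in these windows. Some windows lie partly within annotated exons of the same strand, with 161 of the 250 bases for Klk12 and 49 for Klk5.

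IL-23 DNA in wild-type mice went with higher transcript levels across almost the whole family. The 8 members with counts in every group were all called higher in WT IL-23 than in WT GFP (edgeR quasi-likelihood F-test, Benjamini-Hochberg adjusted p under 0.05 over all genes tested), where 22.9% of the 13807 tested genes were called higher and 21.7% lower. Klk14 had no count in any library and was not tested. Klk12 was called higher too, but it passed the filter on low counts only through the WT IL-23 libraries, so it could be tested only if it differed, and the counts and medians that follow leave it out. The fitted log2 fold changes of the 8 members had a median of 4.28, against -0.04 over all genes tested. In each of the 8 every WT IL-23 library lay above every WT GFP library, an arrangement found in 27.3% of tested genes. The rise ran from 2.95-fold for Klk11 (95% interval of the log2 difference 1.26 to 1.86) to 208.6-fold for Klk6 (6.82 to 8.59).

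Mdl-1-/- mice with the same IL-23 DNA had lower levels of most members than wild-type mice. Klk6, Klk7, Klk8, Klk9, Klk10 and Klk13, 6 of the 8, were called lower, where 10.1% of all tested genes were called lower and 7.58% higher. Klk12 was also called lower, which makes 7, with the limit that it was tested only through WT IL-23, the group where it is high. The median log2 fold change of the 8 members was -1.56, against 0.00162 over all genes. In the 6 members every Mdl-1-/- library lay below every WT IL-23 library, which held for 19.2% of tested genes. The count of 6 depended on single libraries. Leaving out WT IL-23 library 2 gave 4 members and library 3 of that group gave 3. Leaving out Mdl-1-/- library 1 or 3 gave 2 members, Klk6 and Klk8. These passed in each of the fits that left out a library, with a highest adjusted p of 0.0119 and 0.0467 over all alternatives tried. For each of the 6, and for Klk12 where it could be tested, the fitted difference kept its sign in every alternative tried.

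**Figure D1:**
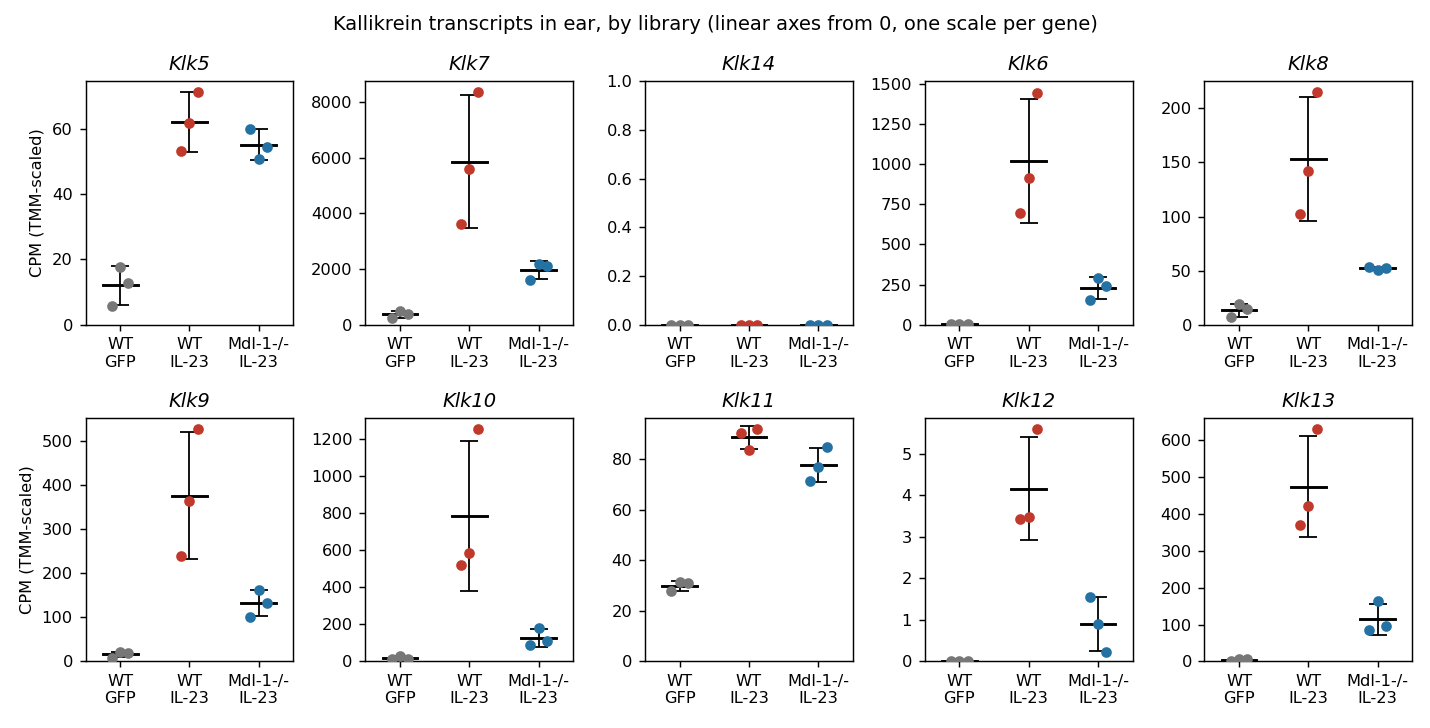
TMM-scaled CPM of the 10 members (1 panel a gene, linear axis from 0) in WT GFP (grey), WT IL-23 (red) and Mdl-1-/- IL-23 (blue) libraries, with points for libraries, a bar for the mean and whiskers for the SD (n = 3). Klk5 and Klk11 show overlapping or adjoining red and blue points (Klk5 means 62.1 and 55.2 CPM), Klk14 is at 0, and in the other 7 panels the blue points lie between the grey and the red ones.

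Klk7, the chymotrypsin-like protease that cuts corneodesmosin, supplied most of the family's counts. It stood at 235.5, 503 and 372 CPM in WT GFP, at 3607, 5612 and 8357 CPM in WT IL-23, and at 1615, 2187 and 2114 CPM in Mdl-1-/- IL-23. The 3 groups did not overlap, with Mdl-1-/- IL-23 in the middle. The rise with IL-23 in wild type was 15.8-fold (log2 3.98, SE 0.398, edgeR adjusted p = 0.000135). Mdl-1-/- libraries were 2.97-fold lower than WT IL-23 (log2 -1.57, SE 0.360, edgeR adjusted p = 0.0235). That call was lost without WT IL-23 library 2 (edgeR adjusted p = 0.0595) or 3 (0.0505), and without Mdl-1-/- library 1 (0.0779) or 3 (0.0652). It was also lost with no filter on low counts (edgeR adjusted p = 0.0651).

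Klk5, the trypsin-like protease that can activate itself and the proenzymes of Klk7 and Klk14, behaved differently. It stood at 5.72, 17.6 and 12.9 CPM in WT GFP, at 53.2, 61.9 and 71.4 CPM in WT IL-23, and at 60.1, 50.8 and 54.6 CPM in Mdl-1-/- IL-23. The rise in wild type was 5.14-fold (log2 2.36, SE 0.284, edgeR adjusted p = 3.85e-05). Both IL-23 groups lay above all WT GFP libraries, and they overlapped each other. Between genotypes the log2 difference was -0.17 with a 95% interval of -0.73 to 0.39 (edgeR adjusted p = 0.698).

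Klk14, a trypsin-like protease prominent in human stratum corneum, had 0 counts in all 9 libraries. Pooled over a group, a count of 0 allows up to 0.169 CPM in WT GFP, 0.250 in WT IL-23 and 0.229 in Mdl-1-/- IL-23, taking 3 counts as the limit and for counting error only. The end of Klk14 shares 287 exon bases with the opposite-strand gene 2310002F09Rik, and 246 of the 901 50-base words in the last 1000 bases of its transcripts also occur in other genes. Reads there could have been discarded or assigned elsewhere, and the strand and multi-mapping settings were not stated in the texts at hand.

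Klk6, a trypsin-like protease able to cut desmoglein 1, had the highest fold change with IL-23 among the 8 members with counts in WT GFP. It was low in WT GFP at 3.98, 5.48 and 5.08 CPM, rose to 696, 911 and 1444 CPM in WT IL-23, and lay at 152.5, 291 and 239.7 CPM in Mdl-1-/- IL-23. The groups were far apart, with no overlap. The rise was 208.6-fold (log2 7.70, SE 0.398, edgeR adjusted p = 1.01e-06), and Mdl-1-/- libraries were 4.47-fold lower than WT IL-23 (log2 -2.16, SE 0.294, edgeR adjusted p = 0.00234).

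Klk13, a trypsin-like protease of stratified epithelia, followed a similar course. It stood at 1.21, 7.13 and 5.70 CPM in WT GFP, at 370, 422 and 629.5 CPM in WT IL-23, and at 85.9, 162.8 and 95.6 CPM in Mdl-1-/- IL-23. The rise was 100.6-fold (log2 6.65, SE 0.559, edgeR adjusted p = 6.90e-05). Mdl-1-/- libraries were 4.12-fold lower than WT IL-23 (log2 -2.04, SE 0.427, edgeR adjusted p = 0.0180), without overlap. The genotype call did not pass once library 3 of WT IL-23 (edgeR adjusted p = 0.0611) or library 1 or 3 of Mdl-1-/- (0.0639 and 0.0670) was left out.

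Klk8, a trypsin-like protease also called neuropsin, stood at 7.10, 18.8 and 14.5 CPM in WT GFP, at 102.6, 142.3 and 214.9 CPM in WT IL-23, and at 53.6, 51.0 and 52.2 CPM in Mdl-1-/- IL-23. The 3 Mdl-1-/- libraries were almost equal, at 52.3 ± 1.33 CPM (SD, n = 3), and lay between the other groups without overlap. Klk8 rose 11.3-fold (log2 3.50, SE 0.348, edgeR adjusted p = 3.94e-05) and was 2.92-fold lower in Mdl-1-/- than in WT IL-23 (log2 -1.55, SE 0.315, edgeR adjusted p = 0.0104). The transcript shares 382 exon bases with 2310002F09Rik, which had 253 counts over all libraries and no call in any comparison.

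Klk9, a chymotrypsin-like member, stood at 8.49, 21.0 and 18.0 CPM in WT GFP, at 238.6, 364 and 528 CPM in WT IL-23, and at 101.9, 161.2 and 132.6 CPM in Mdl-1-/- IL-23. It rose 23.7-fold with IL-23 (log2 4.57, SE 0.418, edgeR adjusted p = 6.04e-05). It was 2.85-fold lower in Mdl-1-/- (log2 -1.51, SE 0.359, edgeR adjusted p = 0.0242), with no overlap of the groups. The genotype call was lost without WT IL-23 library 2 (edgeR adjusted p = 0.0660) or 3 (0.0637), and without Mdl-1-/- library 1 (0.0825) or 3 (0.0748).

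Klk10, whose substrates in skin are not well defined, stood at 11.3, 30.3 and 13.2 CPM in WT GFP, at 522, 586 and 1254 CPM in WT IL-23, and at 88.1, 179.4 and 107.8 CPM in Mdl-1-/- IL-23. WT IL-23 library 3 was far above the other libraries of its group. The rise was 43.2-fold (log2 5.43, SE 0.612, edgeR adjusted p = 0.000455). Klk10 also had the largest fitted genotype difference of the 9 members, 6.29-fold lower in Mdl-1-/- (log2 -2.65, SE 0.529, edgeR adjusted p = 0.0182). That call was lost without Mdl-1-/- library 1 (edgeR adjusted p = 0.0669) or 3 (0.0689).

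Klk12, a trypsin-like member, was scarce, and no library outside WT IL-23 reached the level that the filter on low counts asks for. It had 0 counts in the 3 WT GFP libraries, 15, 16 and 17 counts in WT IL-23, and 7, 4 and 1 in Mdl-1-/- IL-23. Its pooled WT IL-23 level was 23.6 times the limit of 3 counts over the WT GFP group. That ratio leaves out the counting error of the WT IL-23 level (95% interval 2.95 to 5.3 CPM, against a limit of 0.169 CPM). Klk12 was called higher in WT IL-23 than in WT GFP (edgeR adjusted p = 6.87e-05). The pooled WT IL-23 level was 4.36 times that of Mdl-1-/- IL-23, with an exact 95% interval of 2.28 to 9.01 that covers counting error only (edgeR adjusted p = 0.0218). The genotype call was lost without WT IL-23 library 2 (edgeR adjusted p = 0.0602) or 3 (0.0890), and without Mdl-1-/- library 2 (0.0548) or 3 (0.0838).

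Klk11, a trypsin-like member, rose least. It stood at 27.7, 31.3 and 30.9 CPM in WT GFP, at 90.3, 83.5 and 91.8 CPM in WT IL-23, and at 71.2, 76.7 and 84.7 CPM in Mdl-1-/- IL-23. The rise was 2.95-fold (log2 1.56, SE 0.141, edgeR adjusted p = 1.19e-06). Mdl-1-/- and WT IL-23 libraries overlapped, and their log2 difference was -0.19 with a 95% interval of -0.48 to 0.10 (edgeR adjusted p = 0.351). In raw counts, Klk11 came second to Klk7 among the members in each WT GFP library. In each WT IL-23 library it was also exceeded by Klk6, Klk8, Klk9, Klk10 and Klk13.

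**Figure D2:**
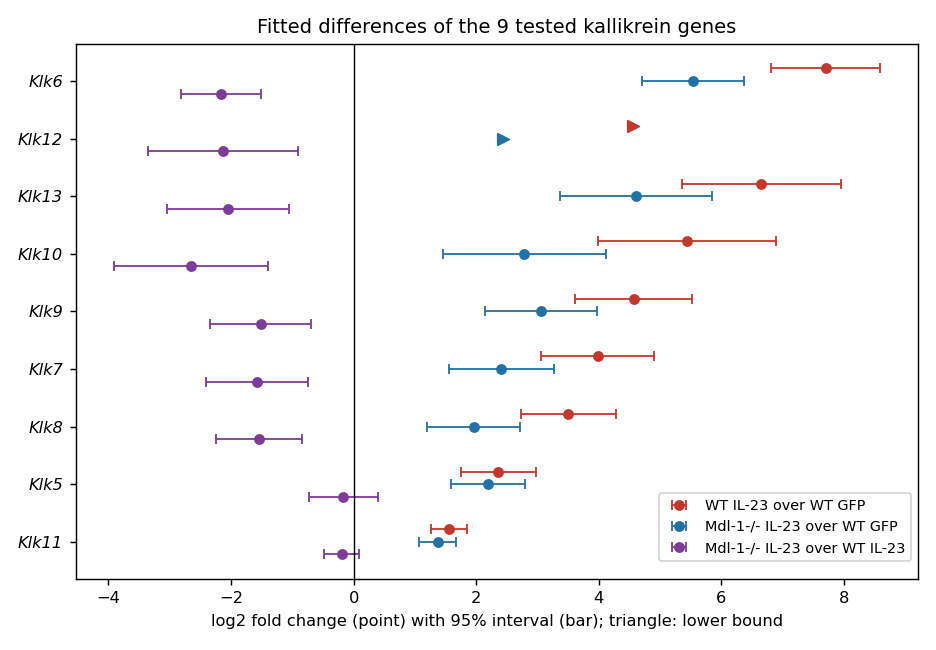
Fitted log2 fold changes (points) with 95% intervals (bars) of the 9 tested members in the 3 comparisons, with a line at 0. Triangles, labelled lower bounds, set the pooled Klk12 levels against the limit of 3 counts in WT GFP, where that group had 0 counts. They leave out the counting error of the IL-23 groups. The purple intervals (Mdl-1-/- IL-23 over WT IL-23) of Klk5, -0.73 to 0.39, and Klk11, -0.48 to 0.10, cross 0, and those of the other 7 members do not.

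Against WT GFP, the family was still raised in Mdl-1-/- mice with IL-23. The same 8 members were called higher, where 10.2% of tested genes were called higher and 6.93% lower, and in each of them the libraries did not overlap (17.9% of tested genes). Their median log2 fold change was 2.60, against -0.02 over all genes. Klk6 was 46.7-fold higher (log2 5.55, edgeR adjusted p = 1.72e-05) and Klk13 24.4-fold higher (log2 4.61, edgeR adjusted p = 0.00127). Klk9 was 8.32-fold, Klk10 6.88-fold, Klk7 5.33-fold, Klk5 4.57-fold, Klk8 3.88-fold and Klk11 2.59-fold higher. The pooled Klk12 level was 5.43 times the limit of 3 counts over WT GFP. That ratio leaves out the counting error of the Mdl-1-/- IL-23 level (95% interval 0.474 to 1.6 CPM, against a limit of 0.169 CPM). Klk12 was called higher in the fit with all 3 groups (edgeR adjusted p = 0.0137). With only the 2 groups compared it did not pass the filter and was not tested. The Klk10 call (edgeR adjusted p = 0.0168) was lost without WT GFP library 1 (0.0587) or 3 (0.0688). This comparison shares its WT GFP libraries with that of WT IL-23, so the resemblance of the results is not independent.

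The authors' deposited tables hold their own edgeR comparisons. For WT IL-23 and WT GFP, 9 members, Klk12 among them, had a false discovery rate under 0.05, as did 5315 of all 54838 genes. For Mdl-1-/- IL-23 and WT GFP, 8 members did, with Klk12 at 0.0701, as did 1858 of all genes. Between the 2 genotypes Klk6 to Klk10, Klk12 and Klk13 did, as did 1662 of all genes. The authors' deposited table for the 2 genotypes gives WT over Mdl-1-/-, the opposite sign to that used here: all 1493 genes called by both had opposite signs. Read that way, the authors' deposited table has Klk6 at 2.11, Klk10 at 2.60, Klk5 at 0.12 and Klk11 at 0.15 on the log2 scale.

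The composition of the family was compared within libraries. Summed, the 10 members made up 0.0354%, 0.0729% and 0.0548% of all counts in WT GFP, 0.530%, 0.737% and 1.01% in WT IL-23, and 0.224%, 0.296% and 0.289% in Mdl-1-/- IL-23. A 3' tag count does not scale with transcript length, so shares of counts were compared without a length correction. Klk7 held 78.8% ± 0.503 of member counts in WT GFP, 66.1% ± 2.55 in WT IL-23 and 71.7% ± 2.19 in Mdl-1-/- IL-23 (SD, n = 3), with no overlap between groups. Of 19 such ratios within a library, tested by exact two-sided permutation tests in all 3 comparisons, none passed adjustment over the 57 tests. The smallest adjusted p was 0.116, as 3 libraries against 3 allow no exact p below 0.1.

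Klk7 counts per Klk5 count were 32.9 ± 7.21 in WT GFP, 91.9 ± 24.6 in WT IL-23 and 36.2 ± 8.39 in Mdl-1-/- IL-23 (SD, n = 3). The WT IL-23 libraries lay above both other groups (exact permutation p = 0.1 for each), while Mdl-1-/- IL-23 and WT GFP overlapped (exact permutation p = 0.9). Klk8 counts per Klk9 count were 0.845 ± 0.0467 in WT GFP, 0.409 ± 0.0199 in WT IL-23 and 0.412 ± 0.106 in Mdl-1-/- IL-23, and the IL-23 groups overlapped (exact permutation p = 0.9). Klk7 counts per Klk8 count were 37.8 ± 2.34 in WT IL-23 and 37.8 ± 6.80 in Mdl-1-/- IL-23 (exact permutation p = 1.0). In the 5 other pairs of members compared, the genotypes did not overlap (exact permutation p = 0.1 for each). Several of these ratios share a gene with each other, so they are not separate results. Klk6 per Klk7 count, at 0.176 ± 0.0156 in WT IL-23 and 0.114 ± 0.0193 in Mdl-1-/- IL-23, and Klk10 per Klk11 count were lower in Mdl-1-/- (SD, n = 3). Klk5 per Klk6, Klk11 per Klk13 and Klk9 per Klk10 count were higher there.

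The family was also set against the inhibitor gene Spink5. The 10 members had 51.3 ± 10.3 counts per 100 Spink5 counts in WT GFP, 438 ± 98.9 in WT IL-23 and 137.4 ± 14.2 in Mdl-1-/- IL-23 (SD, n = 3), with no overlap between groups (exact permutation p = 0.1 for each pair). Klk11 counts per 100 Spink5 counts were 3.39, 4.59 and 3.89 in the group means, in the same order, and Mdl-1-/- IL-23 overlapped both other groups. Klk5 counts per 100 Spink5 counts were 1.29, 3.18 and 2.79, and the IL-23 groups overlapped (exact permutation p = 0.3).

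**Figure D3:**
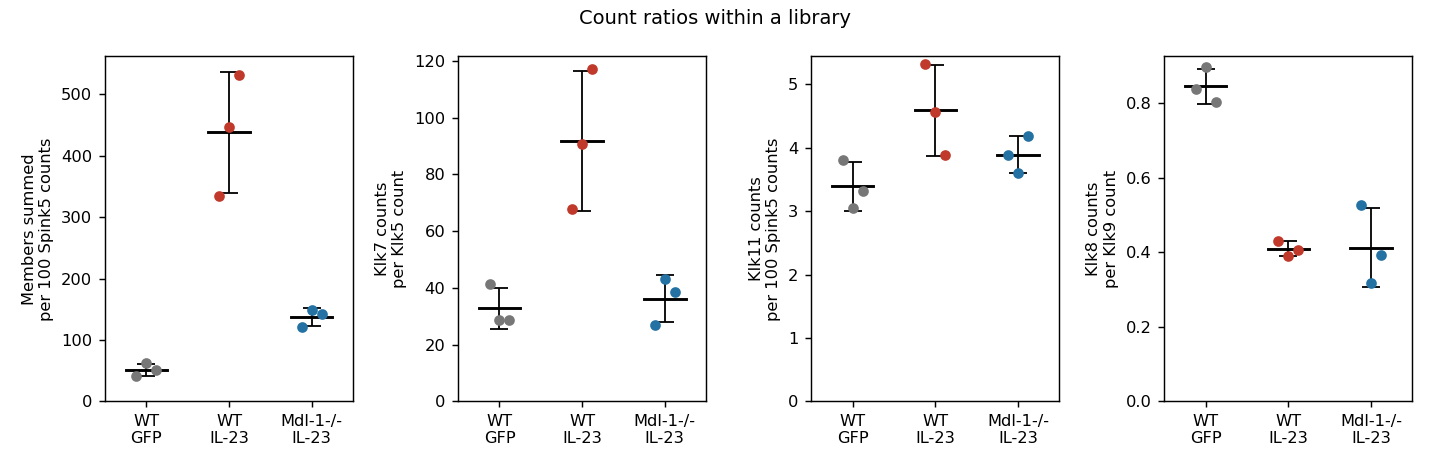
Ratios of raw counts within each library for the 3 groups (points are libraries, bars means, whiskers SD, n = 3, axes from 0). Members summed per 100 Spink5 counts and Klk7 per Klk5 count are highest in WT IL-23 (means 438 and 91.9), while Klk8 per Klk9 count is at 0.409 and 0.412 in the IL-23 groups and 0.845 in WT GFP.

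Position along the locus did not order the fold changes in a simple way. Klk11 (2.95-fold with IL-23) lies between Klk12 and Klk10 (43.2-fold), and Klk5 (5.14-fold) follows Klk6 (208.6-fold). Beyond Klk5, the same cluster continues with Klk4 and Klk15, and then with Klk1 and the Klk1b genes, the glandular kallikreins known from salivary gland and kidney. Of these 16 protein-coding genes, 14 had 0 counts in every library, Klk1, Klk4 and Klk15 among them, and the whole set had 3 counts over the 9 libraries. Counts of the family thus came from the Klk5 to Klk13 stretch. In the last 1000 bases of their transcripts, Klk5, Klk6, Klk7, Klk9, Klk10, Klk11, Klk12 and Klk13 shared 0 words of 50 bases with any other gene, and Klk8 shared 14, with 2310002F09Rik.

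**Figure D4:**
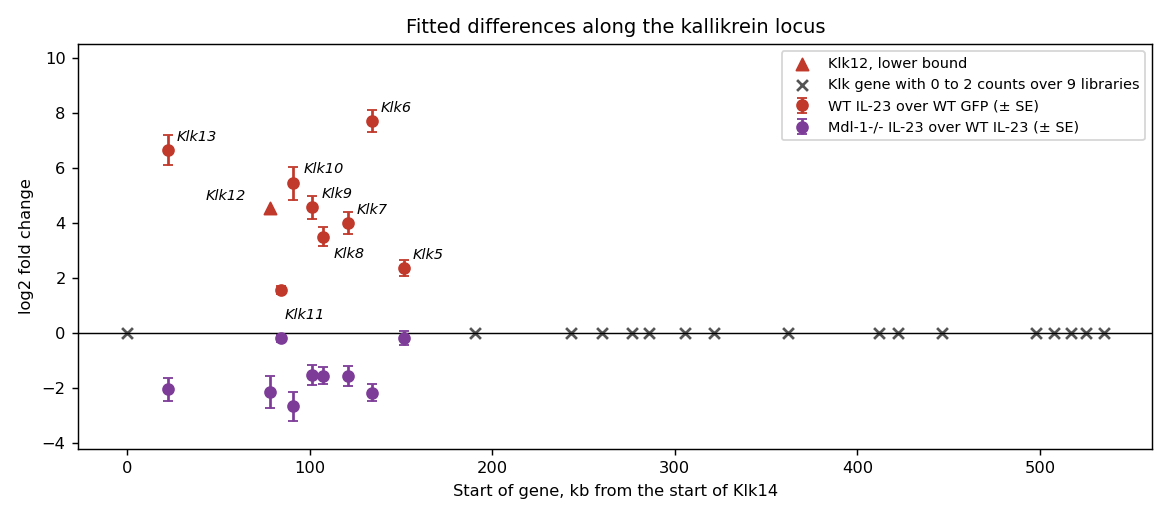
Fitted log2 fold changes (± SE) against the distance of each gene's start from that of Klk14 in kb, for WT IL-23 over WT GFP (red) and Mdl-1-/- IL-23 over WT IL-23 (purple). The triangle is the lower bound of Klk12, and crosses mark Klk14 and the 16 other protein-coding Klk genes, which had 0 to 2 counts in all. Klk11 and Klk5, with purple points at -0.19 and -0.17, stand apart from their neighbours.

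Profiles over the 9 libraries were compared as log2 CPM minus the WT GFP mean. Among members, Klk7 and Klk8 were closest, with a root mean square difference of 0.400, and Klk6 and Klk11 furthest apart, at 4.18. Of 10368 genes compared, members among them, the nearest to Klk6 outside the family were Rptn (repetin, 0.385), S100a8 (0.408) and Sprr2f (0.454). Those nearest to Klk8 were Sdcbp2 (0.160), Slc26a9 (0.259) and Blmh (bleomycin hydrolase, 0.316). The genes nearest to Klk5 were Calm4 (0.162), Asprv1 (the protease SASPase, 0.181) and Cdsn (corneodesmosin, 0.198). For Klk11 they were Abhd5 (0.131), Rab11a (0.131) and Abca12 (a lipid transporter of lamellar granules, 0.155). These are likenesses of 9 libraries in 3 groups and carry no test.

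Some of the other proteases linked to the cascade were called in the same comparisons. The medians of all tested genes and the shares of them that were called, given above, hold for each of the lists that follow. Of 12 tested genes for activators and companion proteases, 7 were called higher and 1 lower in WT IL-23 than in WT GFP (median log2 1.20), and 5 were lower in Mdl-1-/- than in WT IL-23 (median -0.33). Against WT GFP, 5 were higher in Mdl-1-/- IL-23. Tmprss11a, Tmprss11d and Plat would not have been tested without the WT IL-23 libraries. Of the other 9 genes, 5 were higher and 1 lower with IL-23 (median log2 1.16). In Mdl-1-/-, 3 of these 9 were lower than in WT IL-23 (median -0.145), and 3 were higher than in WT GFP (median 0.653). Tmprss13, a membrane serine protease of the epidermis, stood at 29.2 ± 12.3 CPM in WT GFP, 131.0 ± 18.1 in WT IL-23 and 64.3 ± 1.94 in Mdl-1-/- IL-23 (SD, n = 3). It rose 4.50-fold (edgeR adjusted p = 6.74e-06) and was 2.04-fold lower in Mdl-1-/- (edgeR adjusted p = 0.00666). Casp14, the caspase of cornification, rose 16.2-fold (edgeR adjusted p = 7.10e-06) and was 3.09-fold lower in Mdl-1-/- (edgeR adjusted p = 0.00525). Ctsd, the lysosomal protease cathepsin D, rose 2.23-fold (edgeR adjusted p = 7.27e-05) and was 1.72-fold lower in Mdl-1-/- (edgeR adjusted p = 0.00652).

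Ctsl, the gene of cathepsin L, rose 4.77-fold (edgeR adjusted p = 0.000986), and its genotype difference was -0.50 (edgeR adjusted p = 0.335; 0.0154 without WT IL-23 library 1).

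Tmprss11a, a membrane protease with 1 count in each WT GFP library, was at 17.8, 32.5 and 62.9 CPM in WT IL-23 and at 3.12, 3.42 and 0.954 CPM in Mdl-1-/- IL-23, 14.6-fold lower (edgeR adjusted p = 0.00137). Its relative Tmprss11d had 0 counts in WT GFP and stood at 5.70, 5.23 and 8.23 CPM in WT IL-23 and at 1.56, 3.64 and 0.477 CPM in Mdl-1-/- IL-23. The latter were 3.28-fold lower (edgeR adjusted p = 0.0379), a call lost without any 1 of the WT IL-23 libraries or without Mdl-1-/- library 1 or 3 (edgeR adjusted p up to 0.129). Both were tested only through WT IL-23, the group where they are high. With no filter on low counts the genotype differences were -3.86 (edgeR adjusted p = 1.57e-32) and -1.70 (edgeR adjusted p = 0.00610) on the log2 scale. With only the 2 groups compared, where the filter still applied, they were -3.82 (edgeR adjusted p = 0.00854) and -1.67 (edgeR adjusted p = 0.0324). The Tmprss11a p without a filter is thus far below those of the other 2 fits given here. St14, which encodes matriptase, a membrane protease that can activate prokallikreins, passed in no comparison. Its log2 difference was -0.06 for WT IL-23 and WT GFP (95% interval -0.68 to 0.56) and 0.56 for Mdl-1-/- and WT IL-23 (-0.05 to 1.18). Prss8, which encodes prostasin, rose 2.38-fold with IL-23 (edgeR adjusted p = 0.0123), and its genotype difference was -0.15 (95% interval -0.89 to 0.60).

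Most tested inhibitor genes rose with IL-23. Of 16 tested, 9 were called higher and 2 lower in WT IL-23 than in WT GFP (median log2 1.09). Between genotypes 1 was higher and 2 lower (median -0.24), where 7.58% of all tested genes were called higher and 10.1% lower. The genotype counts of this list are thus near those of all genes. Against WT GFP, 7 were higher and 1 lower in Mdl-1-/- IL-23 (median 1.02). Spink6 and Spink12 would not have been tested without the WT IL-23 libraries. Of the other 14 genes, 8 were higher and 2 lower with IL-23 (median log2 1.02). Between genotypes 1 of these 14 was higher and 2 were lower (median -0.174). Spink5 stood at 728, 1026 and 935 CPM in WT GFP, at 1697, 1831 and 2367 CPM in WT IL-23, and at 1837, 2130 and 2023 CPM in Mdl-1-/- IL-23. It rose 2.19-fold (edgeR adjusted p = 3.74e-05), and the IL-23 groups overlapped, with a log2 difference of 0.02 (95% interval -0.30 to 0.35, edgeR adjusted p = 0.940).

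Serpinb3a, a serpin of the squamous cell type, rose 97.8-fold (edgeR adjusted p = 0.000219) and differed by -0.21 on the log2 scale between genotypes (95% interval -1.30 to 0.89). Wfdc5 and Spint1, a WAP-domain and a Kunitz-type inhibitor, rose 9.90-fold and 4.30-fold (edgeR adjusted p = 3.76e-07 and 1.50e-06). Both were called lower in Mdl-1-/-, by 1.61-fold and 1.46-fold (edgeR adjusted p = 0.0423 and 0.0496). The Wfdc5 genotype call was lost without WT GFP library 3, WT IL-23 library 2 or 3, or any 1 of the Mdl-1-/- libraries (edgeR adjusted p up to 0.168), and with upper-quartile scaling (0.0568). That of Spint1 was lost without any 1 of the WT GFP libraries, WT IL-23 library 2 or 3, or Mdl-1-/- library 1 or 3 (edgeR adjusted p up to 0.209). With all 9 libraries the Spint1 call was also lost under 6 other settings: upper-quartile scaling (edgeR adjusted p = 0.0696), a minimum count of 30 (0.0524), dispersions that were not robust (0.0561), only the 2 groups compared (0.0791), DESeq2 (adjusted p = 0.0551) and limma voom (0.0529). Spint2, another Kunitz-type inhibitor, went the other way: it fell 2.69-fold with IL-23 (edgeR adjusted p = 0.00792; 0.0510 without WT IL-23 library 2) and was 3.55-fold higher in Mdl-1-/- than in WT IL-23 (edgeR adjusted p = 0.00637). Cst6, the gene of a cathepsin inhibitor of the epidermis, rose 2.06-fold (edgeR adjusted p = 0.000726), and its genotype difference was 0.54 (edgeR adjusted p = 0.0696). It passed without WT GFP library 2 (edgeR adjusted p = 0.0474), with upper-quartile scaling (0.0499), with no filter on low counts (0.0118), with only the 2 groups compared (0.0464) and with the replicate block (0.0136).

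Among 25 tested substrates and receptors, 16 were called higher and 6 lower in WT IL-23 than in WT GFP (median log2 0.83). Between genotypes 4 were higher and 4 lower (median -0.13), and against WT GFP 11 were higher and 1 lower in Mdl-1-/- IL-23 (median 0.63). Cdsn, encoding corneodesmosin, rose 4.99-fold (edgeR adjusted p = 0.000309), and its genotype difference was -0.43 on the log2 scale (95% interval -1.10 to 0.25). Dsg1a, encoding desmoglein 1, rose 1.37-fold (edgeR adjusted p = 0.0324) and was 1.42-fold higher still in Mdl-1-/- (edgeR adjusted p = 0.0425). The first Dsg1a call was lost without WT GFP library 1 (edgeR adjusted p = 0.163) or WT IL-23 library 2 (0.0635) or 3 (0.113), with upper-quartile scaling (0.131) and at a minimum count of 30 (0.0548). The second was lost with dispersions that were not robust (edgeR adjusted p = 0.0556) and without WT IL-23 library 1 (0.110) or 2 (0.126), or Mdl-1-/- library 1 (0.165) or 3 (0.0864).

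The desmosomal cadherin genes differed among themselves. Dsg1b rose 2.06-fold (edgeR adjusted p = 0.000135), and its genotype difference was 0.11 (95% interval -0.24 to 0.45). Dsc2 rose 2.17-fold (edgeR adjusted p = 0.00979; 0.0754 without WT IL-23 library 3) and was 2.91-fold lower in Mdl-1-/- (edgeR adjusted p = 0.00720). Dsc3 fell 1.31-fold with IL-23 (edgeR adjusted p = 0.0288), a call lost without WT GFP library 1 or 3 or WT IL-23 library 1 or 2 (edgeR adjusted p up to 0.126), and was 1.62-fold higher in Mdl-1-/- than in WT IL-23 (edgeR adjusted p = 0.00414).

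F2rl1, the gene of PAR2, rose by 0.59 on the log2 scale (edgeR adjusted p = 0.0117; 0.0503 without WT IL-23 library 2), with a genotype difference of 0.19 (95% interval -0.17 to 0.55). Il1f9, the gene of the cytokine IL-36 gamma, rose 13.0-fold (edgeR adjusted p = 2.17e-06) and was 2.22-fold lower in Mdl-1-/- (edgeR adjusted p = 0.00962). Il1f6, the gene of IL-36 alpha, rose 14.2-fold (edgeR adjusted p = 5.61e-06) and differed by -0.42 between genotypes (95% interval -1.02 to 0.18). App, the gene of a broadly expressed membrane protein that kallikreins can cut, fell 2.23-fold (edgeR adjusted p = 7.64e-05) and was 2.01-fold higher in Mdl-1-/- than in WT IL-23 (edgeR adjusted p = 0.00217).

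**Figure D5:**
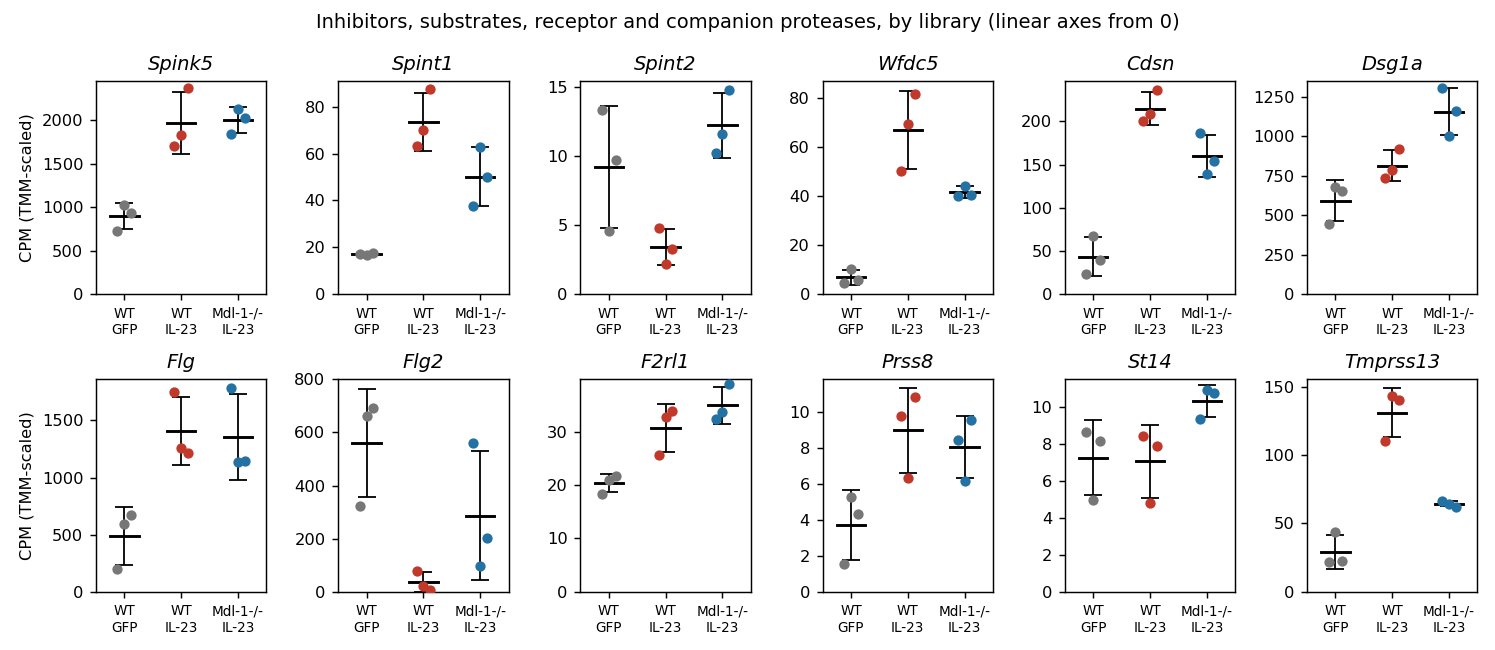
TMM-scaled CPM of 12 genes for inhibitors, substrates, the receptor gene F2rl1 and companion proteases in WT GFP (grey), WT IL-23 (red) and Mdl-1-/- IL-23 (blue), with points for libraries, bars for means and whiskers for SD (n = 3, axes from 0). Spink5 is alike in both IL-23 groups (1965 and 1997 CPM), Tmprss13 is lower in Mdl-1-/- (64.3 against 131.0 CPM), and Spint2 is lowest in WT IL-23 (3.42 CPM).

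Transcription factors of late epidermal differentiation were called higher in 11 and lower in 4 of 20 cases in WT IL-23 (median log2 0.84), and 3 were higher and 3 lower between genotypes (median 0.13). Against WT GFP, 11 were higher and 1 lower in Mdl-1-/- IL-23. Zfp750, a regulator of terminal differentiation, rose 3.07-fold (edgeR adjusted p = 3.40e-06), Grhl3 6.86-fold (edgeR adjusted p = 3.53e-06) and Ovol1 5.81-fold (edgeR adjusted p = 3.77e-06). Grhl1 was 2.06-fold higher in Mdl-1-/- IL-23 than in WT GFP (edgeR adjusted p = 8.86e-05). Between genotypes, Cebpb was 1.72-fold lower in Mdl-1-/- (edgeR adjusted p = 0.00957; 0.0514 without WT IL-23 library 3 and 0.0525 without Mdl-1-/- library 3). Nr3c1, the glucocorticoid receptor gene, fell 3.22-fold with IL-23 (edgeR adjusted p = 8.14e-06) and was 1.98-fold higher in Mdl-1-/- than in WT IL-23 (edgeR adjusted p = 0.00411). Rora, a nuclear receptor gene, was 1.68-fold higher in Mdl-1-/- (edgeR adjusted p = 0.0123; 0.0558 and 0.0539 without WT IL-23 library 2 and 3, 0.0717 without Mdl-1-/- library 1). Maf fell 2.43-fold (edgeR adjusted p = 9.26e-05) and was 2.14-fold higher in Mdl-1-/- (edgeR adjusted p = 0.00242).

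Marker genes of the epidermal layers were read beside these results. Keratins and small proline-rich genes of stressed keratinocytes (Krt6a, Krt6b, Krt16, Krt17, Sprr2d, Sprr2e and Sprr2f) were called higher in 7 of 7 with IL-23 and lower in 7 of 7 in Mdl-1-/- against WT IL-23. Their summed level was 173.0 to 325.5 CPM in WT GFP, 15320 to 29280 in WT IL-23 and 2508 to 6622 in Mdl-1-/- IL-23. The 7 kallikreins that were lower in Mdl-1-/-, Klk12 among them, had that order of groups, and so had the gland and neutrophil sums given further on. Granular-layer markers, from the cells that release kallikreins, were called higher in 7 and lower in 1 of 10 with IL-23, and lower in 2 of 10 between genotypes. The granular sum was 1025 to 2889, 4012 to 4742 and 3552 to 6283 CPM, so the IL-23 groups overlapped.

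Spinous markers were higher in 5 of 5 with IL-23 and in 2 of 5 between genotypes, with sums of 2953 to 5298, 9404 to 9656 and 17400 to 20130 CPM. The higher sum in Mdl-1-/- came from Krt10, at 5015 ± 639 CPM in WT IL-23 and 14800 ± 1670 in Mdl-1-/- IL-23 (SD, n = 3). Krt1 went the other way without overlap, at 1826 ± 63.8 and 1091 ± 445 CPM (SD, n = 3; edgeR adjusted p = 0.125). Basal markers were higher in 1 and lower in 2 of 6 with IL-23, and higher in 1 and lower in 1 of 6 between genotypes. Their sums were 9087 to 11400, 10410 to 13050 and 7557 to 10190 CPM. The part of these markers in the kallikrein results was not tested. In whole ear tissue, fewer cells of a type and less RNA per cell cannot be told apart.

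Markers of other cells were read beside them. Of 9 salivary and other gland genes, Smr3a, Prol1 and Dcpp1 were at 0 in all libraries, and the sum of the list was 3.46 to 6.31 CPM in WT GFP, 58.9 to 136.9 in WT IL-23 and 14.3 to 35.1 in Mdl-1-/- IL-23. Lpo, the gene of lactoperoxidase, made up nearly all of that sum in the IL-23 groups, at 94.2 ± 39.2 CPM in WT IL-23 and 23.8 ± 10.7 in Mdl-1-/- IL-23 (SD, n = 3). The only other gland gene tested, Amy1, fell from 3.66 ± 1.10 CPM in WT GFP to 0.778 ± 0.299 in WT IL-23 (SD, n = 3; edgeR adjusted p = 0.00401). Of 5 tested neutrophil genes, 5 were higher with IL-23 and 2 lower between genotypes, and Elane was at 0 in all libraries. The neutrophil sum was 204.9 to 343 CPM in WT GFP, 34720 to 73850 in WT IL-23 and 6619 to 25810 in Mdl-1-/- IL-23, most of it from S100a8 and S100a9, which keratinocytes also express. General leukocyte markers were higher in 4 of 6 with IL-23, with sums of 24.3 to 38.6, 45.2 to 89.5 and 42.3 to 57.5 CPM. Sebocyte markers fell in 7 of 7 with IL-23, with sums of 840.8 to 1025, 216.2 to 414.4 and 396.6 to 548.4 CPM.

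Markers of deeper tissue were lower with IL-23 in several lists. Adipocyte genes fell in 4 of 4, with sums of 163.6 to 376.6, 33.9 to 64.9 and 39.6 to 71.5 CPM. Chondrocyte genes fell in 2 of 2, with sums of 24.7 to 46.5, 2.96 to 8.28 and 7.74 to 15.5 CPM, and Matn1 was at 0 in all libraries. Schwann cell and glial genes were lower in 3 and higher in 1 of 4, with sums of 232.1 to 259.6, 132.9 to 170.6 and 109.5 to 135.3 CPM. Fibroblast genes were lower in 3 of 6, with sums of 568.8 to 838.7, 343.6 to 728.1 and 198.2 to 597.9 CPM. Hair follicle genes were lower in 2 and higher in 1 of 5, skeletal muscle genes lower in 1 of 5 and endothelial genes lower in 1 of 3, while genes of T and innate lymphoid cells were higher in 3 of 5. The part of these cells in the kallikrein results was not tested.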

How the data were processed

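Each of the authors' 3 deposited count tables covers 2 groups and gives unnormalised counts by Ensembl identifier. The submitters' processing notes name STAR 2.7.0a, featureCounts and edgeR with a build GRCh38.p6, a human name beside mouse identifiers, so the build is uncertain. Not stated anywhere read here were the annotation and the strand and multi-mapping settings. The authors' deposited edgeR tables hold log2 fold changes, log2 CPM, p-values and false discovery rates, used only where named.

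Libraries stood in 2 tables each with equal values (0 differed) and were joined into 9 columns. Symbols and positions came from GENCODE M21 (GRCm38) by identifier, and promoter sequences from RefSeq (GRCm38.p6). The test was that of edgeR 4.0.16 (R 4.3.3): filterByExpr (minimum count 10, minimum total 15; 13807 genes kept), TMM scaling, 1 model of 3 group means, a robust quasi-likelihood F-test with 6 residual degrees of freedom, and Benjamini-Hochberg adjustment over all genes, called under 0.05. The SE of a log2 fold change was derived from the test, as its absolute value divided by the square root of F. The 95% intervals of log2 differences were built from that SE with the t distribution. Alternatives used other scaling, filters, DESeq2 1.42.0, limma voom 3.58.1, 2 groups only, a replicate block and each library left out. Counts of 13807 genes were simulated, with 100 genes changed 4-fold and 100 changed 2-fold in each comparison. The 4-fold changes were recovered in 87% (WT IL-23 against WT GFP), 87% (Mdl-1-/- against WT IL-23) and 86% (Mdl-1-/- IL-23 against WT GFP), and 2-fold changes in 43%, 53% and 58%. False calls made up 5.8%, 3.45% and 2.04% of all calls, in that order. Far fewer genes were changed there than were called in the data, so these rates may not hold for the data. Limits for a count of 0 use 3 counts and, like the exact 95% intervals, cover counting error only. Libraries of a group differed by more than sampling noise (chi-square per gene of 4.6 or more).

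The family and the lists of related and marker genes were chosen with earlier results of these data known, although the rule that picks the members uses names alone. All members are named. From each list the text names in each comparison the called genes with the smallest p (up to 4), as well as Spink5, St14, Prss8, Cdsn, Dsg1a and F2rl1 whatever their value, and Klk1, Klk4 and Klk15. Some genes this rule picked are not reported here. Marker lists are given by counts and sums. For likeness, the 4 members with the smallest p in WT IL-23 against WT GFP were compared with tested genes of at least 5 CPM.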

Additional observations from a re-analysis of the deposited data

How the results depend on the processing

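In WT IL-23 against WT GFP, the 161 alternative values of single members kept their direction and call. In Mdl-1-/- against WT IL-23, 143 of 161 did and 18 lost the call. In Mdl-1-/- IL-23 against WT GFP, 158 of 160 did and 2 (both Klk10) lost it. No member changed direction. These values include Klk12, which passed the main filter only through WT IL-23. With 1 library left out, members called lower in Mdl-1-/- against WT IL-23 numbered 2 to 7 with Klk12, and 2 to 6 without it. All genes called there numbered 1128 to 2802 (2440 with all libraries), and those in Mdl-1-/- IL-23 against WT GFP 1340 to 2580 (2359 with all). Leaving a library out left 2 in a group and fewer samples in the fit. Without a filter 6 members were lower with Klk12, and 5 of the other 8. At a minimum count of 30, 6 members were lower. At that minimum Klk12 was not tested, which left 8 members called higher in both comparisons with WT GFP, as in Mdl-1-/- IL-23 against WT GFP with only those 2 groups. Upper-quartile scaling moved the share of called genes that were higher from 51.3% to 38.9% (WT IL-23 against WT GFP), from 42.9% to 53.2% (Mdl-1-/- against WT IL-23) and from 59.4% to 43.7% (Mdl-1-/- IL-23 against WT GFP). It put the median of all genes at -0.20, 0.06 and -0.12 on the log2 scale, and called the same number of members.

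Deviations of same-numbered libraries of different groups had correlations of -0.0863 to 0.230 (9 pairs, 2 over 0.1). Differently numbered pairs ran from -0.214 to 0.175, so the highest 2 values, 0.230 and 0.182, were of same-numbered pairs. The labels state no pairing, and the numbers were not taken to pair libraries. With the replicate block, 6261, 2800 and 2682 genes were called in the 3 comparisons, against 6167, 2440 and 2359 without it. Members called with the block numbered 9, 7 and 9 with Klk12, and 8, 6 and 8 without Klk12. Depth limits Klk12, with at most 17 counts, and Klk14, with 0.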
